A study of Mus musculus with 18 samples.

Results

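The 100 autosomal snoRNA genes with the most counted reads were taken from the nascent RNA of WT and Tet2-KO mouse embryonic stem (mES) cells. GENCODE M21 lists 1442 autosomal genes of this type among the 54446 genes in the counts. The members were chosen by their counts: reads were summed over all 18 libraries and the 100 highest sums were kept, so the abundance of the members is a description and not a test. The libraries hold RNA captured after cells took up the uridine analogue EU at 1 mM over 10, 20 or 40 min. Biotin was coupled to the EU for capture on streptavidin. WT and Tet2-KO cells were each labelled for the 3 times, with 3 replicates per group. All groups grew in serum with LIF and the inhibitors CHIR99021 and PD0325901, and were passaged on gelatin to remove feeder cells. Only one line of each genotype is described, so replicates are dishes, and p-values measure the spread between these samples only.

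Small nucleolar RNAs (snoRNAs) guide the chemical modification of ribosomal RNA or help to cut its precursor. Box C/D snoRNAs bind fibrillarin and guide ribose methylation, and box H/ACA snoRNAs bind dyskerin and guide pseudouridylation. In mammals most lie in introns of a host gene and are trimmed out of the excised intron, whereas a few, such as Snord118 and Snord13, are transcribed from promoters of their own.

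Libraries held 17931614 to 23069143 gene reads and 44162 to 512186 reads of ERCC spike-in RNA. A level below is reads per 1000 ERCC reads, and a share is reads per 1000000 gene reads (RPM). Reads on Tet2 were not lost in libraries labelled Tet2-KO, with 530 to 643 RPM against 589 to 741 in WT, and a sum over the whole gene cannot show a deleted exon. Of 8 stem cell markers, 7 had reads, at 2139 to 2289 RPM in sum in WT and 1492 to 1663 in Tet2-KO. The eighth, Sox2, lies inside Sox2ot on the same strand and had 0 reads. Summed feeder fibroblast markers (6 of 7 with reads in WT and 7 of 7 in Tet2-KO, Lum at 0 in WT) held 2.75 to 15.7 RPM in WT and 5.14 to 12.6 in Tet2-KO. Primitive endoderm markers, 6 of 6 with reads, held 14.9 to 21.7 and 14.7 to 19.05 RPM. The part of these markers in the results below was not tested.

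None of the 100 members lay inside an annotated host gene on its own strand. A host here is a gene whose span in GENCODE M21 holds the snoRNA gene. A host transcript that runs beyond the annotated gene would be missed. Of all 660 snoRNA genes inside a host gene, 0 had a read in any of the 18 libraries, whereas 225 of 847 without a host did (26.6%). Of the snoRNA genes with a Snord or Snora symbol, 132 lay in a host and had 0 reads, and 6 of the 8 without one were counted. The same held for other small RNA genes: 3 of 1173 miRNA genes, 0 of 303 snRNA genes and 0 of 31 scaRNA genes inside another gene on the same strand had a read, against 411 of 1029, 323 of 1080 and 8 of 20 elsewhere. Over all gene types, 12 of 6457 genes inside another gene had a read, against 75.03% of 47952 others. The hosts themselves had reads: 261 of 290 autosomal host genes had a read in all 18 libraries. Gas5, which holds 10 snoRNA genes, had 2198 to 5508 reads per library, Snhg1 with 8 had 1142 to 1715, and Taf1d with 8 had 18520 to 24134, with 0 reads on the snoRNA genes inside each. Snhg14, which holds 208 of them, had 270 to 490 reads. Reads left uncounted as ambiguous were 2.32% to 2.50% of the total per library, and reads outside genes 13.2% to 16.9%. The counts therefore cannot rank hosted snoRNAs against the members, a description by host gene was not possible, and the members are called here the counted snoRNA genes rather than the most abundant snoRNAs.

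**Figure D1:**
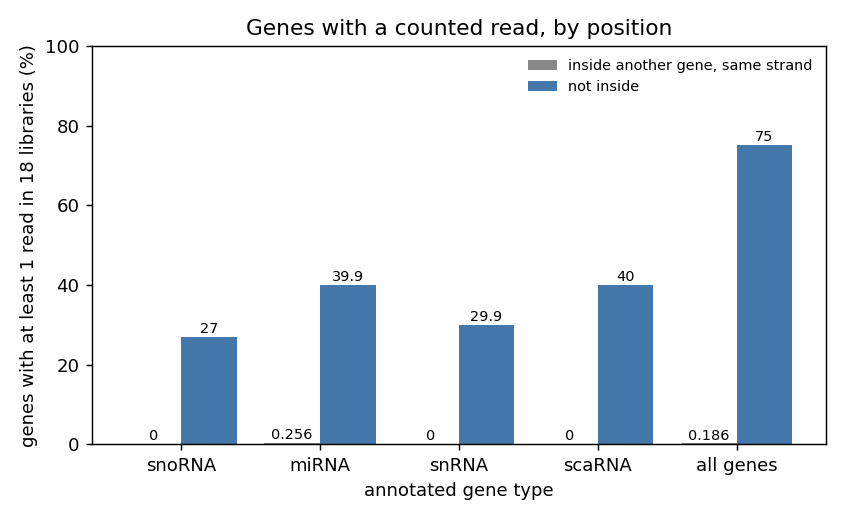
Percent of genes with at least 1 read in the 18 libraries, for genes that lie inside another gene on the same strand (grey) and for the rest (blue), by annotated type. The grey bars reach at most 0.256%, while the blue bars run from 27.0% for snoRNA genes to 75.03% for all genes.

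The sequences of 7 members that carry results are given here from the GENCODE M21 transcripts. They are 4 symbol-named snoRNAs, the most counted gene of a cluster on chromosome 12, Gm25604, with the highest fold change per ERCC read among the tested members, and Gm23595, an untested gene read mainly in Tet2-KO. In Snord118, Snord104 and AF357341, capitals mark TGATGA (the C box) and CTGA within the last 15 bases (the D box). In the others, capitals mark an ACA that ends 2 to 4 bases before the 3′ end. Positions are on mm10.
Snord118, chr11:69073427-69073561, plus strand: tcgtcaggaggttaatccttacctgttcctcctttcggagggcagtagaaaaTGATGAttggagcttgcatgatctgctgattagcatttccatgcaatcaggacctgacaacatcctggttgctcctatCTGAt
Snord104, chr11:106500993-106501062, plus strand: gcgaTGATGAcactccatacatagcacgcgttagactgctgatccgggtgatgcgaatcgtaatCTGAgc
AF357341, chr12:109681519-109681593, plus strand: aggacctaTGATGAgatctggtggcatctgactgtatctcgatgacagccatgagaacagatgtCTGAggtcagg
Snora57, chr19:8888538-8888685, minus strand: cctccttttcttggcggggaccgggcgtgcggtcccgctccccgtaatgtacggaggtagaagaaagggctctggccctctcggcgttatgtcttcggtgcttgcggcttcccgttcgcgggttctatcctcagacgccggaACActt
Snora17, chr2:26639190-26639321, minus strand: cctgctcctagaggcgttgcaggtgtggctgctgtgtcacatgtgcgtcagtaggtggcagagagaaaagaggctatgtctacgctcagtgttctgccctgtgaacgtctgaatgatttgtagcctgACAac
Gm25604, chr4:126860980-126861112, minus strand: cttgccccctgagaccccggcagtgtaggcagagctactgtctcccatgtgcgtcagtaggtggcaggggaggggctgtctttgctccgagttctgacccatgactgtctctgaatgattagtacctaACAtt
Gm23595, chr9:107164977-107165106, plus strand: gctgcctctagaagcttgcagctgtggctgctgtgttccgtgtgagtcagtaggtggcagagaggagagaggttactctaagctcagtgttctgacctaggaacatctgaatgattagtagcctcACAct

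With the C box searched in the first 20 bases and the D box in the last 15, on the RNA strand, both were found in 7 of the 100 members, against 21.01% of all autosomal snoRNA genes and 0.0213% of 32851 RefSeq promoter windows cut to 75 bases. In Snord118 the C box lies further in, and it is not among the 7. An ANANNA motif in the middle of the gene (the H box) with an ACA near the end was found in 34 members, against 35.2% of all autosomal snoRNA genes and 2.52% of promoter windows cut to 130 bases. In Gm25604 the ACA marked above was found without that motif in the middle, and it is not among the 34. By symbol, 3 members are box C/D, 3 are box H/ACA and 94 carry no snoRNA family name. By blastn, 43 members were most like Snora17 among the named snoRNAs, close to the 37.7% of all autosomal snoRNA genes. Gm25604 was 74.3% identical to Snora17 over 105 bases and Gm23595 83.7% over 129. Gm24949 was 95.8% identical over 215 bases to Rnu3b4, a gene of the U3 snoRNA, which acts in small-subunit rRNA processing. A near-identical second gene was listed for 11 members, among them Snord118 (Gm24208) and Snora57 (Gm26132), and a read that matches both copies equally cannot be assigned to either.

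The members held 10335 reads in all, 98.1% of the 10530 reads on autosomal snoRNA genes. The count was uneven: the 3 most counted genes, Snord118, Snora57 and Snora17, held 52.8% of it with 2145, 1979 and 1331 reads, and the first 12 held 82.8%. Only 16 members had 100 reads or more, 16 had a read in all 18 libraries, and 67 had at most 1 read per library on average. The last members inside the limit, Gm25370, Gm23803 and Gm27991, had 4 reads each, and the first outside it, Rnu3a, Gm25094 and Gm26288, had 3. Per length, averaged over libraries, Snord118 stood at 42.7 RPM per kb, Snora57 at 37.1, Snora17 at 27.5, Snord104 at 18.1, AF357341 at 17.9 and Snord13 at 12.9.

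**Figure D2:**
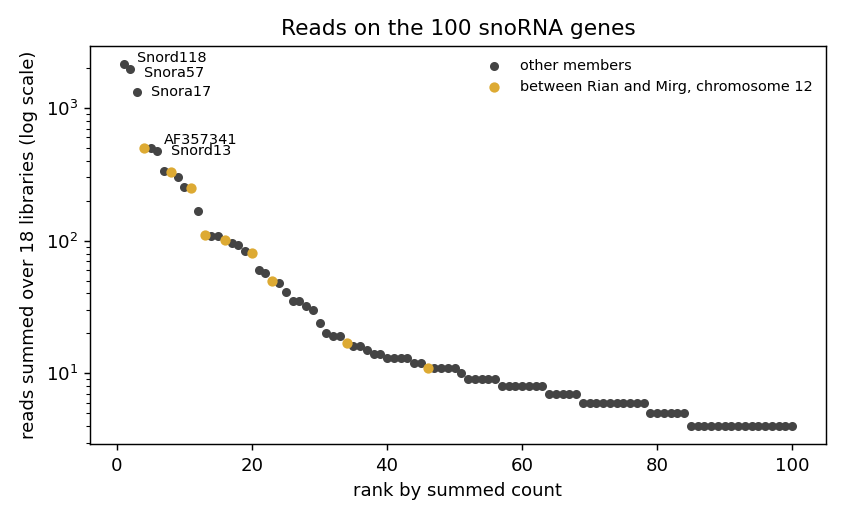
Reads summed over 18 libraries (log axis) against rank for the 100 members. Each point is a gene, from 2145 reads for Snord118 to 4 for the last 16, and yellow points are the 9 members between Rian and Mirg on chromosome 12.

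The members are 68 to 215 bases long with a median of 128. The nearest gene end upstream on the same strand lay within 5000 bp for 9 of them, and at a median of 38699 bp. Snord118 starts 134 bp after the end of Tmem107, a gene of the ciliary transition zone, and Gm25604 starts 827 bp after Zmym4. Of the 100 members, 39 lie within a gene on the opposite strand, such as Snora57 within Lbhd1 and Gm23479 within the autophagy gene Uvrag. Reads were thus counted by strand. An exon of another gene overlaps 4 members.

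The 9 members AF357428, Gm23736, AF357341, Gm22981, Gm25856, Gm23787, Gm25854, Gm22205 and Gm25224 lie in a row from 109679945 to 109689544 on the plus strand of chromosome 12, between the ends of Rian and the start of Mirg. This is part of the imprinted Dlk1-Dio3 region, whose maternal copy makes Meg3, Rian and Mirg RNA. They hold 1448 reads, 14.01% of the member reads, from 11 on Gm22981 to 497 on AF357341. The remaining snoRNA gene of the interval, Gm23347, had 0 reads, and 13 further ones inside Rian or Mirg had 0 reads in sum.

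Of the 100 members, 14 passed the filter on low counts and were tested. They are Snord118, Snord13 and Snord104 of box C/D, Snora57 and Snora17 of box H/ACA, the 4 cluster genes AF357341, AF357428, Gm22205 and Gm23787, and Gm23234, Gm25604, Gm23479, Gm24439 and Gm22150. The other 86 had at most 14 reads in any library apart from Gm24949, which reached 22.

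As a share of gene reads, the members fell with labelling time. Summed over the 100, the share in WT was 38.4 ± 4.29 RPM (SD, n = 3) after 10 min, 29.4 ± 1.48 after 20 min and 19.2 ± 0.981 after 40 min. In Tet2-KO it was 37.0 ± 1.32, 25.3 ± 1.503 and 19.6 ± 0.552. The ranges did not overlap between labelling times in either genotype. Per 1000 ERCC reads the same sums rose, from 1.80 ± 0.330 to 4.32 ± 0.306 and 4.73 ± 0.0951 in WT and from 3.53 ± 0.0843 to 5.21 ± 0.0752 and 7.77 ± 0.428 in Tet2-KO. Among the 14 tested members 11 were higher per ERCC read at 40 than at 10 min, averaged over genotypes, and 0 lower, against 98.3% and 0% of all genes. In WT the numbers were 10 and 0 against 96.7% and 0.01%, and in Tet2-KO 8 and 0 against 94.7% and 0.00502% (DESeq2 called the same numbers). All gene reads per ERCC read rose further, 5.29-fold from 10 to 40 min in WT and 4.16-fold in Tet2-KO. Without Snord118 the share still went from 28.3 ± 3.40 to 15.99 ± 0.991 in WT and from 28.9 ± 1.94 to 17.02 ± 0.0939 in Tet2-KO.

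Between 40 and 10 min, averaged over genotypes, the share of 8 of the 14 tested members was lower and of 0 higher by the edgeR quasi-likelihood test, Benjamini-Hochberg adjusted, at 0.05. At an unadjusted p under 0.05 the number was 8 as well, and DESeq2 called 8 lower and 0 higher. Of all 19910 genes tested, 32.6% were lower and 19.9% higher by the adjusted edgeR test. Throughout, shares of all genes called come from that test. The shares at an unadjusted p or by DESeq2 are not given, so member counts by these have no background. The median log2 change was -0.98 over the 14 members and -0.10 over all genes. In WT 6 members were lower against 29.5% of genes, and in Tet2-KO 5 against 20%, with 0 higher in each against 16.1% and 16.5%.

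Snord118, needed for maturation of large-subunit rRNA, gave 11.3, 10.1 and 9.12 RPM in the WT replicates at 10 min. It gave 5.45, 4.70 and 8.62 at 20 min and 3.12, 3.18 and 3.25 at 40 min. In Tet2-KO the replicates stood at 9.92, 9.27 and 5.35, then at 4.55, 4.14 and 4.16, and then at 2.005, 2.92 and 2.73. In both genotypes every 40 min library lay below every 10 min and 20 min library. The log2 change in share from 10 to 40 min was -1.67 ± 0.20 (SE) in WT and -1.68 ± 0.22 in Tet2-KO (adjusted p = 2.76e-08 and 1.32e-07, edgeR quasi-likelihood test, Benjamini-Hochberg adjusted). Tmem107, the gene just upstream, had 10 to 43 reads per library and did not pass the test, at 0.31 ± 0.29. Per ERCC read the level of Snord118 rose 1.65-fold over these times in WT (adjusted p = 0.000221, edgeR quasi-likelihood test, Benjamini-Hochberg adjusted). In Tet2-KO it was 1.29-fold with an adjusted p of 0.0740 in the same edgeR test.

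Snord13, which directs acetylation of small-subunit rRNA, had shares of 1.35, 2.43 and 2.28 RPM in WT at 10 min. They were 1.27, 0.634 and 1.91 at 20 min and 0.607, 0.685 and 0.243 at 40 min. In Tet2-KO they were 3.16, 1.94 and 1.31, then 1.16, 1.24 and 2.16, then 0.580, 0.593 and 0.502. All 40 min libraries were below all 10 min libraries of their genotype, on 5 to 14 reads each. The change was -1.96 ± 0.41 in WT and -1.93 ± 0.42 in Tet2-KO (adjusted p = 0.000217 and 0.000374, edgeR quasi-likelihood test, Benjamini-Hochberg adjusted). Mak16, whose end lies 9496 bp upstream, went the other way, at 0.27 ± 0.02 averaged over genotypes.

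AF357341 showed the lowest change in share among the members tested. Its RPM were 1.30, 2.52 and 2.51 in WT at 10 min, 2.24, 1.53 and 2.84 at 20 min, and 0.433, 0.294 and 0.583 at 40 min. In Tet2-KO they were 2.18, 1.17 and 2.15, then 1.48, 0.569 and 1.18, then 0.475, 0.247 and 0.446. In WT the 20 min libraries overlapped those at 10 min, and the 40 min libraries lay below all others of their genotype, on 5 to 12 reads. The log2 change, averaged over genotypes, was -2.25 ± 0.29 (adjusted p = 7.05e-08, edgeR quasi-likelihood test, Benjamini-Hochberg adjusted), and 0.09% of all genes tested had a lower value. The corresponding percentages were 0.206% for Snord13 and 0.593% for Snord118. Per ERCC read AF357341 was 0.0986 ± 0.0345 (SD, n = 3) after 10 min and 0.107 ± 0.0318 after 40 min of EU in WT, against 0.177 ± 0.0627 and 0.157 ± 0.0592 in Tet2-KO. The median gene rose by 2.12 on the log2 scale over the same interval per ERCC read, and AF357341 stood at -0.04 ± 0.30.

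Of the other 3 tested cluster genes, Gm22205 and Gm23787 fell as a share. Gm22205 changed by -0.96 ± 0.29 and Gm23787 by -0.93 ± 0.34, averaged over genotypes (adjusted p = 0.00648 and 0.0238, edgeR quasi-likelihood test, Benjamini-Hochberg adjusted). The call of Gm23787 was lost without WT 10 min replicate 1 or 2, Tet2-KO 10 min replicate 1 or Tet2-KO 40 min replicate 2, at values of -0.84 to -0.72 and edgeR adjusted p of 0.0522 to 0.112. AF357428, with 0 reads in 1 library of each genotype at 10 min, was at -1.28 ± 0.67 and did not pass. It passed without WT 10 min replicate 2 or Tet2-KO 10 min replicate 3 (edgeR adjusted p = 0.0350 and 0.0405). Summed over the 9 cluster members, the share was 6.12 ± 0.720, 5.37 ± 0.817 and 2.38 ± 0.151 RPM in WT for the 3 times in order, and 4.64 ± 0.896, 3.32 ± 0.547 and 1.67 ± 0.363 in Tet2-KO. Rian changed by -0.68 ± 0.02, Meg3 by -0.33 ± 0.02 and Mirg by -0.22 ± 0.04 in share. B830012L14Rik, the nearest gene downstream of the cluster on the same strand, changed by -0.79 ± 0.08. Each of these genes passed the test.

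Snord104, a box C/D guide of rRNA methylation, changed by -1.28 ± 0.27 averaged over genotypes (adjusted p = 0.000160, edgeR quasi-likelihood test, Benjamini-Hochberg adjusted). In Tet2-KO its change was -0.89 ± 0.40 and did not pass, with an adjusted p of 0.0853 in the same edgeR test. Its WT libraries had 46 to 83 reads at 10 min, 16 to 30 at 20 min and 16 to 22 at 40 min. In Tet2-KO they had 13 to 34, 15 to 20 and 6 to 17, and the times overlapped. Snora57 changed by -0.9996 ± 0.17 and Gm23479 by -1.04 ± 0.33 (adjusted p = 5.44e-06 and 0.00878, edgeR quasi-likelihood test, Benjamini-Hochberg adjusted).

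Snora17, a box H/ACA guide of rRNA, did not pass the test of a change in share. It had 3.99, 4.76 and 2.74 RPM in WT at 10 min, 2.44, 3.65 and 4.33 at 20 min, and 4.20, 2.69 and 3.69 at 40 min. In Tet2-KO it had 4.09, 4.61 and 3.10, then 3.49, 2.95 and 4.47, then 3.06, 3.76 and 3.35, so that all groups overlapped. The change from 10 to 40 min was -0.16 ± 0.16, near the median of all genes, and 44.3% of genes were lower. Its level per 1000 ERCC reads went from 0.182 ± 0.0626 to 0.867 ± 0.164 in WT and from 0.372 ± 0.0535 to 1.34 ± 0.0327 in Tet2-KO. Averaged over genotypes, Gm24439 was the only tested member with a positive change in share, 0.28 ± 0.40, which did not pass the test. In WT it was at 0.77, on 3 to 10 reads at 10 min. In Tet2-KO every tested member had a negative change, with -0.03 as the highest.

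**Figure D3:**
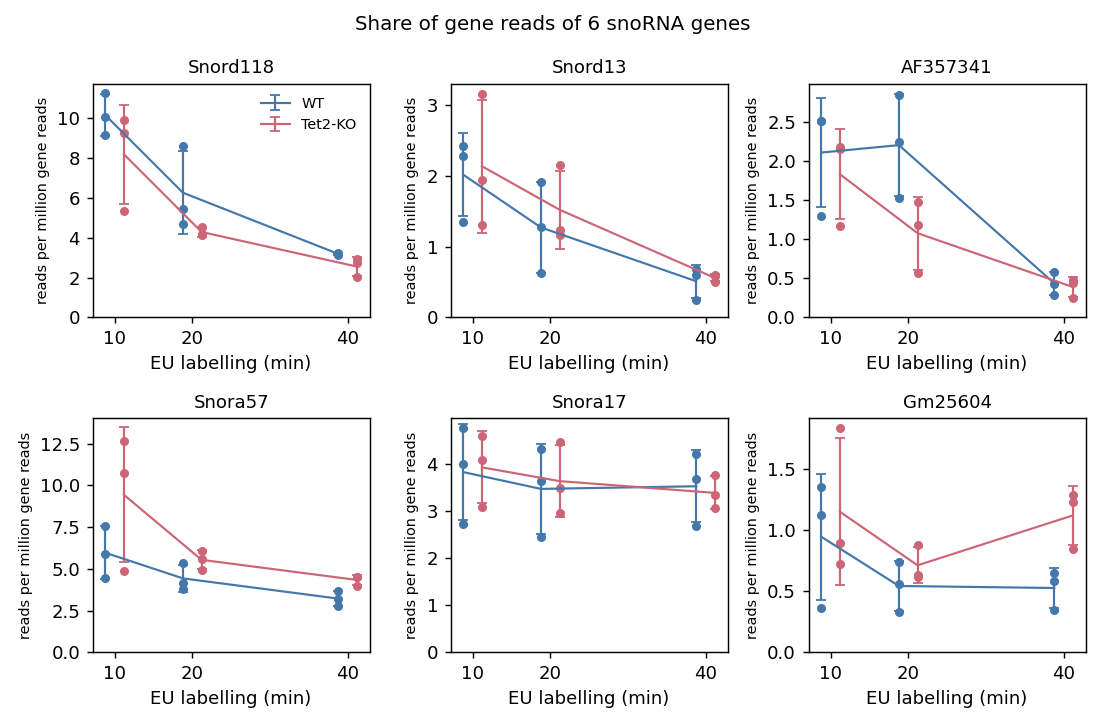
RPM against EU labelling time for 6 members, with points for libraries and lines and bars for the mean ± SD of 3 replicates in WT (blue) and Tet2-KO (red). Snord118, Snord13 and AF357341 are lowest at 40 min, with means of 3.19, 0.512 and 0.437 in WT, while Snora17 stays between 3.39 and 3.93 in all 6 group means.

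**Figure D4:**
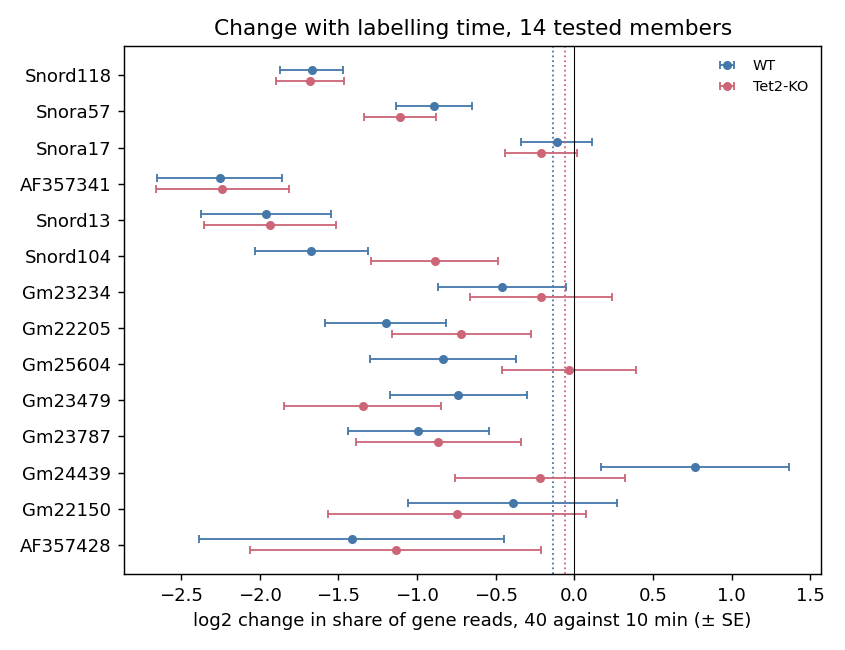
Log2 change in share of gene reads from 10 to 40 min, with SE, for the 14 tested members in WT (blue) and Tet2-KO (red). Dotted lines mark the median of all genes tested, -0.14 in WT and -0.06 in Tet2-KO, and the values run from -2.25 for AF357341 to 0.77 for Gm24439, both in WT.

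In the test of the difference itself, the change with time was not called different between genotypes for any of the 14 members (0 on either scale by the edgeR quasi-likelihood test, Benjamini-Hochberg adjusted). At an unadjusted p under 0.05, 1 passed per ERCC read and 0 as a share, and DESeq2 called 0 on either scale. Of all genes, 0.552% had a higher and 19.3% a lower change in Tet2-KO per ERCC read, and 5.89% and 3.36% as a share. The SE of the difference was 0.28 for Snord118 and 0.81 for Gm24439 per ERCC read, so only large differences could be seen in the less counted members.

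The genotypes were compared over the mean of the 3 labelling times, on both scales. In bulk RNA, fewer cells of a type and less RNA per cell cannot be told apart, and the amount of spike-in followed the total RNA of each sample. Per ERCC read, 7 of the 14 tested members were higher in Tet2-KO and 0 lower by the edgeR quasi-likelihood test, Benjamini-Hochberg adjusted. The number at an unadjusted p under 0.05 was 7, and DESeq2 called 6 higher and 0 lower. The edgeR test called 80.5% of all genes higher and 4.15% lower. The median log2 fold change was 0.33 for the 14 and 0.70 for all genes, and 6 members lay above the latter. The 7 were Gm25604, Snora57, Gm24439, AF357428, Snord13, Snora17 and Snord118. As a share of gene reads, 1 member was higher against 24.6% of all genes and 5 were lower against 32%. The one with a higher share was Snora57, and those with a lower share were Snord118, Snord104, Gm22205, Gm23234 and Gm23787. DESeq2 called 1 higher and 4 lower on this scale. The median was -0.40 for the 14 and -0.04 for all genes. For the sum of the 100 members, the log2 ratio of Tet2-KO to WT was 0.65 per ERCC read and -0.08 as a share, averaged over the labelling times.

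Within a labelling time, in the same fit of 18 libraries, the members called higher per ERCC read were 7 of 14 after 10 min, 2 after 20 min and 3 after 40 min, and 0 were lower. Of all genes, 79%, 53.7% and 68.2% were higher and 2.1%, 4.86% and 2.84% lower. Snora57 and Snora17 were called higher in each of the 3 times, Snora57 at log2 fold changes of 1.68 ± 0.18, 0.80 ± 0.20 and 1.117 ± 0.21 (SE) and Snora17 at 1.04 ± 0.22, 0.55 ± 0.22 and 0.62 ± 0.22. Gm25604 was called after 10 and 40 min, and Snord118, AF357341, Snord13 and Gm24439 after 10 min. As a share, 1 member was higher and 2 were lower after 10 min, against 17.9% and 27.1% of genes. After 20 min 0 were higher and 3 lower, against 17.6% and 20.7%, and after 40 min 0 passed in either direction, against 18.9% and 19.6%. At an unadjusted p under 0.05, 1 member passed as a share after 40 min, and DESeq2 called 0. As a share, DESeq2 called 1 higher and 1 lower after 10 min, and 0 higher and 2 lower after 20 min. Per ERCC read it called 7, 1 and 3 higher after 10, 20 and 40 min. Gm22205 had a lower share after both 10 and 20 min, at -0.97 ± 0.38 and -1.10 ± 0.43. Whether the fold change between genotypes differed among labelling times was tested only for 40 against 10 min, as above.

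Snora57 was higher in Tet2-KO on both scales. Its WT replicates had 7.58, 5.88 and 4.43 RPM at 10 min, 4.12, 5.34 and 3.82 at 20 min, and 3.21, 2.79 and 3.64 at 40 min. The Tet2-KO replicates had 4.89, 10.8 and 12.6, then 6.09, 5.59 and 4.93, then 4.54, 4.50 and 3.96. The genotypes did not overlap at 40 min and overlapped at 10 and 20 min, where Tet2-KO replicate 1 and 3, respectively, were the low ones. The log2 fold change was 1.199 ± 0.11 per ERCC read and 0.47 ± 0.14 as a share (adjusted p = 7.96e-23 and 0.00383, edgeR quasi-likelihood test, Benjamini-Hochberg adjusted). Of all genes tested, 87.4% had a lower fold change.

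Gm25604 had the highest fold change per ERCC read among the tested members. The levels per 1000 ERCC reads in WT were 0.0522, 0.0685 and 0.0156 at 10 min, 0.0809, 0.116 and 0.0457 at 20 min, and 0.158, 0.0886 and 0.139 at 40 min. In Tet2-KO they were 0.0854, 0.0647 and 0.185, then 0.122, 0.190 and 0.130, then 0.362, 0.471 and 0.487. On this scale the genotypes were apart at 20 and 40 min and overlapped at 10 min. As a share they were apart at 40 min and overlapped at 10 and 20 min. The log2 fold change was 1.31 ± 0.27 per ERCC read (adjusted p = 2.37e-06, edgeR quasi-likelihood test, Benjamini-Hochberg adjusted). As a share it was 0.58 ± 0.27 with an adjusted p of 0.0610 in the same edgeR test, and it passed when any of 4 libraries was left out (WT 10 min replicate 2, WT 20 min replicate 2, Tet2-KO 10 min replicates 1 and 2), at an adjusted p down to 0.0283. Zmym4, which ends 827 bp upstream on the same strand, had log2 fold changes of 1.02 ± 0.05 and 0.28 ± 0.01 on these scales.

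Snord118 was called in opposite directions on the 2 scales, at 0.34 ± 0.11 per ERCC read and -0.39 ± 0.12 as a share (adjusted p = 0.00423 and 0.00636, edgeR quasi-likelihood test, Benjamini-Hochberg adjusted). The first is below the median of all genes, 0.70, so its level was higher in Tet2-KO but by less than that of the median gene. Its level per 1000 ERCC reads was 0.475 ± 0.0738 in WT and 0.774 ± 0.212 in Tet2-KO at 10 min, 0.911 ± 0.258 and 0.881 ± 0.0102 at 20 min, and 0.787 ± 0.0324 and 1.00 ± 0.125 at 40 min. Snord13 and Snora17 were higher per ERCC read, at 0.89 ± 0.23 and 0.74 ± 0.13 (adjusted p = 0.000137 and 2.93e-08, edgeR quasi-likelihood test, Benjamini-Hochberg adjusted), and did not pass as a share, at 0.15 ± 0.24 and 0.01 ± 0.13. Gm24439 was higher by 1.11 ± 0.34 per ERCC read (adjusted p = 0.00160, edgeR quasi-likelihood test, Benjamini-Hochberg adjusted). AF357428, at 0.99 ± 0.48 with an adjusted p of 0.0449 in the edgeR test, lost its call when any of 12 single libraries was left out, with 0.71 as its lowest value, without Tet2-KO 10 min replicate 2.

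The other 4 members with a lower share in Tet2-KO did not pass the test per ERCC read. Snord104 changed by -0.65 ± 0.22, Gm23234 by -0.68 ± 0.25, Gm22205 by -0.86 ± 0.24 and Gm23787 by -0.64 ± 0.28 in share (adjusted p = 0.0130, 0.0192, 0.00305 and 0.0486, edgeR quasi-likelihood test, Benjamini-Hochberg adjusted). Per ERCC read the same genes were at 0.07 ± 0.23, 0.05 ± 0.25, -0.14 ± 0.27 and 0.07 ± 0.30. Gm22205 had 2.02, 1.98 and 0.958 RPM in WT at 10 min, 1.32, 1.16 and 0.792 at 20 min, and 0.824, 0.930 and 0.389 at 40 min. In Tet2-KO it had 0.889, 0.943 and 0.682, then 0.688, 0.518 and 0.308, then 0.633, 0.495 and 0.3904. The genotypes were apart at 10 and 20 min and overlapped at 40 min. Gm23787 lost its call when any of 13 single libraries was left out, and Gm23234 without WT 10 min replicate 3 or Tet2-KO 20 min replicate 3. The long RNAs around the cluster were lower in share as well, Rian by a log2 change of -0.49 ± 0.02, Meg3 of -0.47 ± 0.02 and Mirg of -0.62 ± 0.03. B830012L14Rik, just downstream of the cluster, was at -0.44 ± 0.07.

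**Figure D5:**
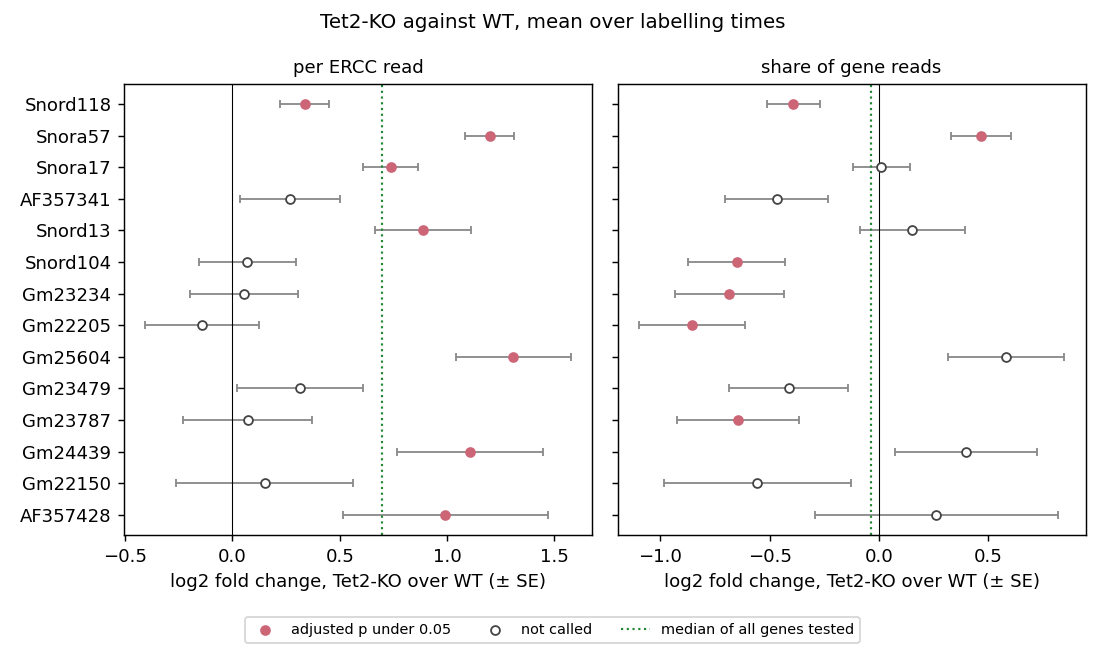
Log2 fold change of Tet2-KO over WT, averaged over labelling times, with SE, for the 14 tested members per ERCC read (left) and as a share of gene reads (right). Filled points have an adjusted p under 0.05, and the dotted line is the median of all genes tested, 0.70 on the left and -0.04 on the right. Of the 14 points, 6 lie right of it in each panel.

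Reads on the genes of the snoRNA particle proteins were followed as a list. Names below stand for the genes, and protein was not measured. Of all genes, 80.5% were higher in Tet2-KO and 4.15% lower per ERCC read, and 24.6% higher and 32% lower as a share. Of the box C/D core proteins Fbl, Nop56, Nop58 and Snu13, 4 of 4 were higher in Tet2-KO per ERCC read, and as a share 2 were higher and 2 lower. Fbl, the methyltransferase fibrillarin, was at 0.27 per ERCC read and -0.46 as a share, and Snu13 at 1.00 and 0.27. Of the box H/ACA core proteins Dkc1, Nop10, Nhp2 and Gar1, 4 of 4 were higher per ERCC read, and as a share 0 were higher and 2 lower. Their log2 fold changes in share lay between -0.16 and 0.07. Of 11 assembly and maturation factors, 10 were higher and 0 lower per ERCC read, and 0 higher and 5 lower as a share, with medians of 0.66 and -0.07 beside 0.70 and -0.04 for all genes. From 10 to 40 min the median change in share was -0.16 for the C/D proteins, 0.01 for the H/ACA proteins and -0.01 for the assembly factors.

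Among the members below the filter, Gm23595 was singled out after its values were seen. It had 0, 0 and 0 reads in WT at 10 min, 0, 0 and 0 at 20 min, and 1, 0 and 0 at 40 min. The Tet2-KO replicates had 14, 5 and 3 reads at 10 min, 7, 9 and 3 at 20 min, and 4, 6 and 8 at 40 min. The genotypes did not overlap in any of the 3 labelling times. It has 59 reads in Tet2-KO against 1 in WT and is a member through the former, so its values are a description with no test. The gene lies on chromosome 9 within Dock3, on the opposite strand, and Dock3 itself was at 0.01 ± 0.04 in share. Gm25092, on chromosome 17, had fewer reads in Tet2-KO, 21 against 62, for a ratio in share of 0.370. Its mean RPM was 0.166 in WT and 0.206 in Tet2-KO at 10 min. It was 0.447 and 0.105 at 20 min, and 0.3755 and 0.0362 at 40 min. Gm24949, the gene like Rnu3b4, had 38 reads against 71, a ratio of 0.585. Its mean RPM was lower in Tet2-KO at 10 min only, at 0.216 against 0.705 in WT. In WT and Tet2-KO it was 0.261 and 0.312 at 20 min, and 0.123 and 0.126 at 40 min. Gm25092 and Gm24949 were chosen after their values were seen. Reads in a single genotype were seen in further members on few reads, in Tet2-KO only for some and in WT only for others. Gm23079 had 15 reads in Tet2-KO and Gm24884 had 9, each against 0 in WT. Some of these members had all their reads in a single library. How often genes with so few reads are read in a single genotype was not computed.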

How the data were processed

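The authors trimmed reads with Trimmomatic 0.39, aligned them to mm10 with HISAT2 2.2.1 and counted them per gene with HTSeq 0.12.4, and deposited raw counts per gene and per ERCC transcript for each of the 18 libraries. The feature type, strand setting and overlap mode are not given in the sources used here. Of 54446 gene identifiers, 54409 were found in GENCODE M21 (same build, while the authors used another release), which gave types and positions. Genes were kept by edgeR's filterByExpr with a minimum count of 10. One edgeR quasi-likelihood fit with a mean for each of the 6 groups was made with ERCC read totals as library sizes and one with gene read totals, both without TMM, with Benjamini-Hochberg adjustment at 0.05. Standard errors are the log2 fold change over the square root of F.

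The members, lists and tests were chosen with earlier results of these data known. Named genes are the 10 most counted members, the 5 highest and 5 lowest changes (between genotypes among called members), members without a host annotated in GENCODE M21, which proved to be all 100, and the genes around the limit of 100. Gm23595, Gm25092, Gm24949, Gm23079, Gm24884, Gm24745 and Gm23949, below the filter, were picked from these after their values were seen. Alternatives were TMM, DESeq2, other ERCC transcripts or reads on protein-coding genes as library size, other filters, a replicate block, each labelling time alone, each library left out, and other sets of members. The ratio of a snoRNA to its host gene was not computed, since 0 members have an annotated host. The sequence of 1 further member is not reported here. Boxes were searched as letters, and likeness by blastn 2.17.0. On simulated counts for 19910 genes, the comparison of genotypes as a share found 43 of 100 genes changed 2-fold with a mean count under 30 and 100 of 100 with more, and called 9 of 19710 unchanged genes. Versions were R 4.3.3, edgeR 4.0.16 and DESeq2 1.42.0. The reads carry no molecular identifiers and need not be separate molecules.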

Additional observations from a re-analysis of the deposited data

How the results depend on the processing

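Fitted on the 6 libraries of a labelling time alone, and under the other alternatives, counts moved as follows. The share of all genes called under each alternative is not given here. These counts therefore do not show whether the members moved with or apart from other genes. Per ERCC read, the 7 members called higher in Tet2-KO became 3 with at least 10 counts in every library, where 3 members were tested in place of 14, 14 with no filter on low counts, where all 100 were, 3 at 20 min alone, 3 at 40 min alone and 2 with TMM in place of the spike-in, where 4 were called lower in place of 0. As a share, the 1 higher became 3 with no filter, 2 with TMM, 0 at 20 min alone and 2 at 40 min alone, and the 5 lower became 1 with at least 10 counts in every library, 1 at 10 min alone and 0 at 40 min alone. With each library left out in turn, the counts ran from 6 to 7 (higher per ERCC read), 1 to 2 (higher as a share) and 3 to 6 (lower as a share, with 3 without Tet2-KO 20 min replicate 3). They ran from 6 to 9 for members lower in share at 40 min in WT and 4 to 5 in Tet2-KO, and the log2 ratio of the summed members from 0.60 to 0.69 per ERCC read and from -0.11 to -0.061 as a share.

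With TMM the log2 fold change of Tet2-KO over WT, positive per ERCC read, turned to -0.35 for Snord118, -0.43 for AF357341, -0.61 for Snord104, -0.64 for Gm23234, -0.37 for Gm23479, -0.61 for Gm23787 and -0.52 for Gm22150; this follows from centring on the genes instead of the spike-in. At 20 min alone it was -0.059 for Snord118, -0.55 for AF357341, -0.033 for Snord104 and -0.52 for Gm23234. At 10 min alone it was -0.094 for Snord104 and 0.029 for Gm22205, and at 40 min alone 0.18 for Gm22205 and -0.11 for Gm23787. The share of Snora17 was at -0.064 at 40 min alone. With a library left out, the values crossed 0 for the share of Snora17 (-0.053 to 0.078) and AF357428 (-0.035 to 0.90), and per ERCC read for Snord104 (-0.061 to 0.20), Gm23234 (-0.059 to 0.19), Gm23787 (-0.067 to 0.16) and Gm22150 (-0.13 to 0.58). None of these values was called in the fit reported except that of Snord118, and for settings other than TMM the cause was not tested.

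Same-numbered replicates of different groups did not deviate together (correlations of -0.13 to 0.12 over 45 pairs), so the numbers were not taken as pairs. With the replicate block, 7 members were higher and 0 lower per ERCC read, 1 higher and 5 lower as a share, and 6 and 5 lower at 40 min in WT and Tet2-KO, equal to the counts without it. The snoRNA to host ratio with its alternatives was not run, because 0 members have an annotated host. Members with a mean count under 30 are the limit of these libraries: of simulated 2-fold changes between genotypes in share, 43 of 100 were found there. All members except Snord118, Snora57 and Snora17 have such a mean count. The share of members called is thus not on equal terms with that of all genes.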
